A study of Mus musculus with 60 samples.

Results

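The comparison described here sets the alar plate against the dorsal midbrain in mouse embryos at E12.5 and E13.5 (days of gestation). Its 12 libraries were taken by their labels, 3 for each region and stage, out of 60 in a series of bulk RNA sequencing of 5 brain regions at 4 stages. All embryos carried TH-GFP, a fluorescent reporter for the gene of tyrosine hydroxylase, and no group was treated. The E12.5 groups were the alar plate (replicates 1, 2 and 3) and the dorsal midbrain (replicates 1, 2 and 3), and the E13.5 groups were the same regions (replicates 4, 5 and 6 of each). The ventral midbrain, ventral forebrain and ventral hindbrain libraries of the same stages entered the fits for the estimate of spread and the choice of features to test. They did not enter the differences. Pieces of brain were cut out under a stereomicroscope, so each library holds every cell type of its piece. The labels do not give the level along the head-to-tail axis at which the alar plate was cut, and they name no embryo for any library. The p-values therefore measure the spread between these samples, which may be technical.

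The neural tube is divided along its dorsoventral axis into the roof plate, the alar plate, the basal plate and the floor plate. The roof plate is a narrow signalling centre at the dorsal midline that secretes Wnt and BMP proteins, and in the midbrain it lies along the dorsal tissue that forms the tectum. The alar plate is the dorsal part of the wall on each side, and at the border between midbrain and hindbrain the isthmic organiser, a source of Fgf signal, patterns the tissue around it. Progenitors divide next to the ventricle, and their daughters leave the cell cycle and become neurons.

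Values are RPKM, reads per kilobase of transcript and per 1000000 assigned reads. Differences are alar plate minus dorsal midbrain on the log2(RPKM + 1) scale, ± the standard error from limma, with limma's Benjamini-Hochberg adjusted p. This scale understates the change of genes with low values. A gene was called higher or lower when its adjusted p was below 0.05 and its log2 difference was at least 1 in size. In bulk tissue, fewer cells of a type and less RNA per cell cannot be told apart.

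The 12 libraries held 8.07 to 23.6 assigned reads in units of 1000000. Markers of the labelled regions were present: Otx2, which marks forebrain and midbrain, ran from 58.4 to 194 RPKM over the 12 libraries, and Lhx2 and Lhx9, homeobox genes of the alar midbrain and diencephalon, were above 42 RPKM in all of them. The hindbrain gene Hoxa2 did not exceed 0.264 RPKM in any of them. A list of 23 hindbrain and cerebellum genes summed to 17.1 RPKM in alar plate replicate 5 at E13.5. In the other libraries it summed to 4.91 to 9.98 RPKM. Some libraries stood apart from their group. Alar plate replicate 3 at E12.5 differed by at least 1 on the log2 scale from the mean of its group's other libraries in 1871 of 13994 features (13.4%), against 0.179% to 2.99% in the other 11 libraries. In it Gbx2 was at 77.2 RPKM, Olig3 at 53.9, Ttr at 94.4, Tbr1 at 24.5 and Dlx1 at 21.4, while alar plate replicates 1 and 2 held at most 0.423 RPKM of any of these 5 genes. Features with short transcripts were high in it and those with long transcripts low: its median departure was 0.56 (log2) in the 3502 features with the shortest transcripts and -0.52 in the 3498 with the longest. Dorsal midbrain replicate 3 at E12.5 held Tcf7l2, a gene strong in the thalamus and pretectum, at 393 RPKM (23.7 and 19.6 in replicates 1 and 2) and Pax6 at 46.7 RPKM (1.88 and 0.202). Alar plate replicate 4 at E13.5 held Tcf7l2 at 221 RPKM (73.3 and 54.2 in replicates 5 and 6), and alar plate replicate 5 held the epidermal keratin Krt5 at 8.33 RPKM against 0 in the other libraries of E13.5. Xist, transcribed from the inactive X chromosome of females, was above 53 RPKM in replicates 1, 2 and 5 and below 0.22 RPKM in replicates 3, 4 and 6 of both regions, so each stage had the same sexes in both regions.

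**Figure D1:**
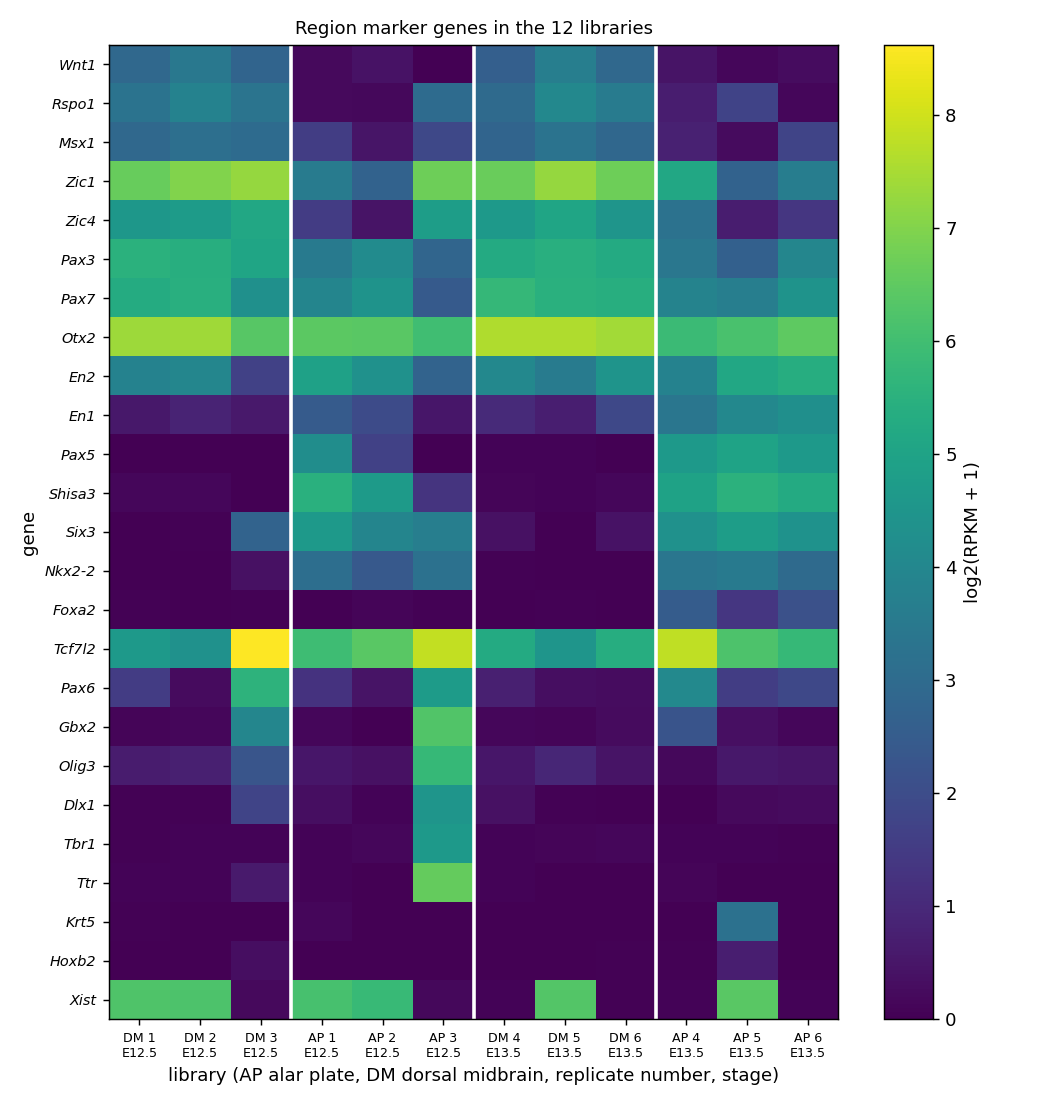
Level of 24 region marker genes and of Xist in the 12 libraries, as log2(RPKM + 1) on a colour scale; columns are libraries (AP alar plate, DM dorsal midbrain, with replicate number and stage) and white lines part the groups. Gbx2, Olig3, Dlx1, Tbr1 and Ttr are bright in alar plate replicate 3 of E12.5 (77.2 RPKM for Gbx2), and Tcf7l2 is brightest in dorsal midbrain replicate 3 (393 RPKM).

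At E13.5 the regions differed in 771 of 13851 features tested (5.57%), 383 higher (2.77%) and 388 lower (2.8%) in the alar plate. At E12.5 they differed in 81 of 13733 (0.59%), 21 higher (0.153%) and 60 lower (0.437%). Without alar plate replicate 3 the E12.5 count was 133 of 13719 (0.969%), 55 higher (0.401%) and 78 lower (0.569%), and without replicate 3 of both regions it was 529 of 13742 (3.85%). Leaving out other single libraries also moved the E12.5 count by over 1.5 times, to 42 without dorsal midbrain replicate 1, 38 without dorsal midbrain replicate 2, 192 without alar plate replicate 1 and 279 without dorsal midbrain replicate 3. In 1 fit of both stages 184 genes were called at E12.5, among them Zic4, Zic5, Shisa3, Pax5, Rspo1 and Npy; the E12.5 calls given from here on are those of limma fitted to that stage alone. The 3 alar plate libraries lay all above or all below the 3 dorsal midbrain libraries in 54.8% of features at E13.5 and in 20.5% at E12.5. Of the 81 genes called at E12.5, 55 were called in the same direction at E13.5 (14 higher, 41 lower; 67.9% of the E12.5 genes and 7.13% of the E13.5 genes), and none was called in opposite directions. All 81 had the same sign at both stages. The stages share no library.

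**Figure D2:**
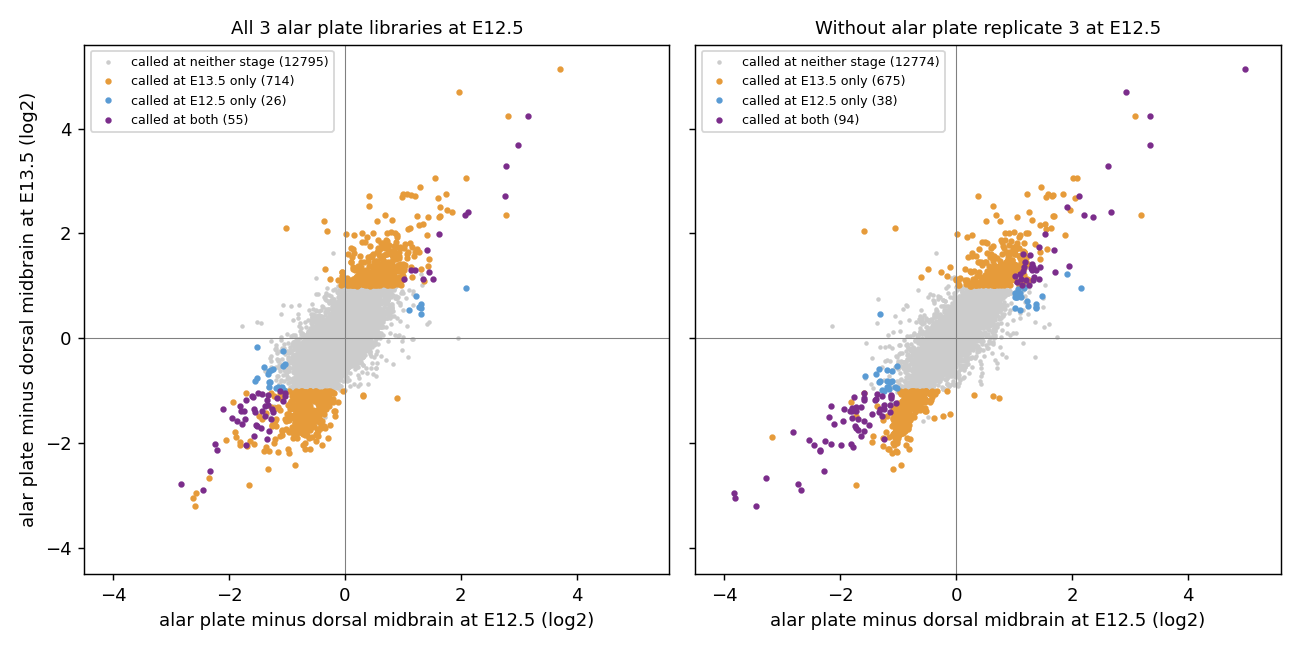
Alar plate minus dorsal midbrain difference (log2) of each feature at E12.5 (horizontal) and E13.5 (vertical), with all 3 alar plate libraries of E12.5 (left) and without alar plate replicate 3 (right); colours show the stage at which a feature was called. The features lie along a rising diagonal (Pearson's r across features 0.704 on the left and 0.831 on the right), and 55 (left) and 94 (right) were called at both stages.

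Genes of the roof plate and dorsal midline were lower in the alar plate at both stages. At E13.5, 12 of the 20 members tested were lower (2.8% of all features) and 0 higher, with a median difference of -1.44 against -0.02 over all features. At E12.5, 4 of 20 were lower (Wnt1, Gdf7, Bmp6 and Msx1; 0.437% of all features), and 13 without alar plate replicate 3 (0.569% of all features), where the median was -1.89; without dorsal midbrain replicate 1 the count was 2. The signals of this group come first. Wnt1, a secreted ligand of the roof plate and the isthmus, stood at 6.51, 9.94 and 5.84 RPKM in the dorsal midbrain and at 0.155, 0.339 and 0 in the alar plate at E12.5. At E13.5 it stood at 5.06, 11.8 and 6.53 RPKM in the dorsal midbrain and at 0.376, 0.1003 and 0.217 in the alar plate. The regions did not overlap at either stage, and all 6 alar plate libraries, replicate 3 of E12.5 among them, were below 0.4 RPKM. The log2 difference was -2.84 ± 0.18 (adjusted p = 1.32e-05) at E12.5 and -2.77 ± 0.26 (adjusted p = 1.42e-05) at E13.5. Wnt1 lies at chr15:98789857-98793837 on the plus strand of mm10.

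Gdf7, a BMP-family ligand of the roof plate, was at 1.95, 3.14 and 1.29 RPKM in the dorsal midbrain and at 0.194, 0.165 and 0.119 in the alar plate at E13.5 (-1.39 ± 0.20, adjusted p = 0.000192). Bmp6, another BMP ligand, differed by -1.50 ± 0.25 at E12.5 (adjusted p = 0.012) and by -1.05 ± 0.30 at E13.5 (adjusted p = 0.014). Msx1, a homeobox gene that responds to BMP signal, was at 5.89, 8.81 and 6.27 RPKM in the dorsal midbrain and at 0.744, 0.183 and 2.43 in the alar plate at E13.5 (-2.04 ± 0.29, adjusted p = 0.000194). All 3 were also called at E12.5, with all alar plate libraries below all dorsal midbrain libraries. The E12.5 call of Bmp6 was lost without dorsal midbrain replicate 1 and that of Msx1 without each of dorsal midbrain replicates 1 and 2, and the E13.5 call of Bmp6 without alar plate or dorsal midbrain replicate 5. Lmx1a, a roof plate and floor plate homeobox gene, did not exceed 0.872 RPKM in any of the 12 libraries and was not called. Over the BMP and TGF-beta list, 6 of 37 members were lower (2.8% of all features) and 0 higher at E13.5. With a pseudocount of 0.1, 9 were lower and 3 higher, and with voom 11 were lower and 3 higher. Of all 13851 features, these settings called 548 and 621 lower and 763 and 843 higher. Without dorsal midbrain replicate 5, 4 were lower. The others among the 6 were Chrdl1, a BMP antagonist, and Id1 and Id3, inhibitors of differentiation that BMP signal induces. The call of Id1 was lost without alar plate replicate 4 or dorsal midbrain replicate 5. Id3 was at 62.2, 90.4 and 76.7 RPKM in the dorsal midbrain and at 18.0, 20.2 and 27.9 in the alar plate at E13.5 (-1.76 ± 0.17, adjusted p = 1.78e-05). Id3 in alar plate replicate 3 of E12.5 was at 77.5 RPKM, beside 22.7 and 19.2 in replicates 1 and 2.

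Zic1, Zic2, Zic4 and Zic5, zinc-finger transcription factors of the dorsal neural tube, were lower at E13.5. Zic1 was at 99.9, 151 and 104 RPKM in the dorsal midbrain and at 34.7, 5.49 and 11.52 in the alar plate at E13.5 (-3.04 ± 0.85, adjusted p = 0.0113). Its call at E13.5 was lost without alar plate replicate 5 (-2.47, adjusted p = 0.0541). At E12.5 it was at 97.5, 125.2 and 152 RPKM in the dorsal midbrain, at 10.9 and 5.51 in alar plate replicates 1 and 2 and at 105 in replicate 3. That library was as high as the dorsal midbrain, and the groups overlapped only through it. With it the difference was -2.62 ± 0.88 (adjusted p = 0.127), and without it -3.81 ± 0.68 (adjusted p = 0.0127). The annotated span of Zic4 overlaps that of Zic1 on the other strand of chromosome 9, so without a stated strand their reads there cannot be told apart. Zic4 was at 23.6, 32.6 and 21.7 RPKM in the dorsal midbrain and at 8.57, 0.621 and 1.59 in the alar plate at E13.5 (-2.96 ± 0.63, adjusted p = 0.0023). Zic2 and Zic5, neighbours on chromosome 14, differed by -1.89 ± 0.58 (adjusted p = 0.0189) and -1.94 ± 0.42 (adjusted p = 0.00233). The call of Zic2 was lost in 3 of 14 other settings, among them without replicate 5 of either region (adjusted p up to 0.103). At E12.5 these genes were not called with all libraries. Without alar plate replicate 3, Zic1, Zic4 and Zic5 were called and Zic2 was not (-3.17 ± 0.81, adjusted p = 0.0559).

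The Wnt pathway list, from ligands to targets, had 11 of 48 members lower (2.8% of all features) and 0 higher at E13.5, with a median of -0.39. At E12.5, 4 of 49 were lower with all libraries (0.437% of all features), 11 without alar plate replicate 3 (0.569%), and 2 without dorsal midbrain replicate 1, dorsal midbrain replicate 2 or alar plate replicate 2. Among the ligands besides Wnt1, Wnt3 was at 14.0 ± 1.81 RPKM (SD, n = 3) in the dorsal midbrain and at 2.64, 2.31 and 3.09 in the alar plate at E13.5 (-2.03 ± 0.18, adjusted p = 8.3e-06). Wnt2b was called at both stages, by -2.11 ± 0.18 at E12.5 (adjusted p = 6.21e-05) and -1.34 ± 0.21 at E13.5 (adjusted p = 0.000297). Rspo1 and Rspo3 encode R-spondins, secreted proteins that strengthen Wnt signal. Rspo1 was at 6.80, 15.2 and 11.0 RPKM in the dorsal midbrain and at 0.631, 2.31 and 0.123 in the alar plate at E13.5 (-2.66 ± 0.40, adjusted p = 0.000238). At E12.5 it was at 0.158 and 0.130 RPKM in alar plate replicates 1 and 2 and at 7.11 in replicate 3, beside 8.68, 13.2 and 8.99 in the dorsal midbrain. Rspo3 followed the same order at E12.5, with 0.336, 0.168 and 19.9 RPKM in the 3 alar plate libraries, replicate 3 being above all dorsal midbrain libraries (3.35, 4.22 and 7.15).

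Fzd10, a Wnt receptor, was at 78.0, 117 and 92.2 RPKM in the dorsal midbrain and at 9.80, 8.71 and 19.2 in the alar plate at E13.5. Its log2 difference was -2.89 ± 0.41 (adjusted p = 0.000167), and at E12.5 it was -2.45 ± 0.54 (adjusted p = 0.0437). The groups did not overlap at either stage, but the E12.5 call was lost in 7 of 16 other settings. Axin2 and Nkd1, feedback inhibitors that canonical Wnt signal switches on, and Sp5, a zinc-finger gene that it also switches on, were lower too. Axin2 was at 35.8, 46.6 and 37.8 RPKM in the dorsal midbrain and at 12.8, 10.2 and 12.51 in the alar plate at E13.5 (-1.67 ± 0.14, adjusted p = 7.72e-06), and it was also called at E12.5 (-1.52 ± 0.27, adjusted p = 0.016), a call lost in 4 of 16 other settings, among them without dorsal midbrain replicate 1, dorsal midbrain replicate 2 or alar plate replicate 2. Sp5 was at 14.7, 19.2 and 18.4 RPKM in the dorsal midbrain and at 3.23, 2.99 and 4.61 in the alar plate at E13.5 (-2.01 ± 0.19, adjusted p = 1.24e-05). Nkd1 differed by -1.31 ± 0.17 (adjusted p = 8.69e-05) and the Wnt antagonist Dkk1 by -1.04 ± 0.18 (adjusted p = 0.00053), the latter a call lost without replicate 4 of either region. Lef1, a transcription factor of the pathway, was at 46.5 to 49.9 RPKM in the dorsal midbrain and 21.4 to 26.7 in the alar plate at E13.5, a difference of -0.97 ± 0.19 that stayed short of 1 (-1.03 without alar plate replicate 6, where it was called). The ligand Wnt5a, of the branch that acts without beta-catenin, had a difference of 0.97 ± 0.26 in the other direction. It was not called by limma with all libraries and was called higher in 6 of 14 other settings, among them voom and the fit without alar plate replicate 4 (adjusted p of 0.00523 to 0.0218 over the 6).

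Because the list holds targets of TCF/LEF factors, the RefSeq promoters (GRCm38.p6) were searched for the core CTTTGAT on both strands in the 250 bases before the start. Of the 11 genes lower at E13.5, 9 matched a promoter by symbol, and 1 of these (11.1%), Sp5, held the core, against 3.21% of all 32851 promoters. The match in Sp5, 104 bases before the start, is in capitals. A match is a description of letters, not of a binding site.
Sp5 (chr2:70474673-70474922, plus strand): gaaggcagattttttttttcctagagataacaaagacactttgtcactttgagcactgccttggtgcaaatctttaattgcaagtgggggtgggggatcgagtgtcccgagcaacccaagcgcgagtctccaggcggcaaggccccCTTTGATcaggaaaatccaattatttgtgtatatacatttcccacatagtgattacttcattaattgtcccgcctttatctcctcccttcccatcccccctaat

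Genes higher in the alar plate at E13.5 included the homeobox genes Six3 and Nkx2-2, the paired-box gene Pax5 and Shisa3. Six3, a homeobox gene known in the forebrain, eye and midbrain GABAergic precursors, was at 19.7, 26.6 and 19.9 RPKM in the alar plate and at 0.314, 0 and 0.353 in the dorsal midbrain at E13.5. At E12.5 it was at 24.2, 14.2 and 11.9 RPKM in the alar plate and at 0, 0.0450 and 5.72 in the dorsal midbrain. The highest dorsal midbrain library was replicate 3, still below every alar plate library. The difference was 3.15 ± 0.58 at E12.5 (adjusted p = 0.0189) and 4.24 ± 0.77 at E13.5 (adjusted p = 0.000796), and 4.26 ± 0.34 at E12.5 without replicate 3 of both regions. The E12.5 call was lost in 4 of 16 other settings: without dorsal midbrain replicate 1, dorsal midbrain replicate 2 or alar plate replicate 2, and with the libraries of both regions alone (adjusted p up to 0.341). The antisense transcript Six3os1 overlaps Six3 on chromosome 17 and showed the same order; as the strand of the counting is not given, reads of the pair cannot be told apart. Nkx2-2, a homeobox gene of the ventral neural tube, was at 9.49, 10.6 and 6.94 RPKM in the alar plate and at 0.0358, 0 and 0 in the dorsal midbrain at E13.5 (3.29 ± 0.53, adjusted p = 0.000379). It was called at E12.5 too (2.78 ± 0.20, adjusted p = 1.91e-05), where alar plate replicate 3, at 8.40 RPKM, lay with the others.

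Shisa3, an inhibitor of Wnt and Fgf receptor maturation, had the highest E13.5 difference of the named genes (5.13 ± 0.30, adjusted p = 6.01e-07). It was at 30.1, 45.4 and 37.6 RPKM in the alar plate and below 0.11 in the dorsal midbrain. At E12.5 alar plate replicates 1 and 2 held 43.1 and 25.1 RPKM and replicate 3 held 1.45, and the fit of that stage called the gene without replicate 3 (4.98 ± 1.03, adjusted p = 0.0263) but not with it (3.72 ± 1.13, adjusted p = 0.102). Pax5, a paired-box gene of the isthmus and of the midbrain next to it, was at 24.3, 31.1 and 23.5 RPKM in the alar plate and at 0.0698, 0.0648 and 0 in the dorsal midbrain at E13.5 (4.70 ± 0.25, adjusted p = 3.9e-07). At E12.5 it was at 17.6, 2.18 and 0 RPKM in the alar plate and listed at 0 in all 3 dorsal midbrain libraries. The spread among the alar plate libraries thus covered the whole range, and the difference was not called with all libraries (1.96 ± 0.78, adjusted p = 0.174). In the ventral midbrain of the same stages Pax5 averaged 12.1 and 13.0 RPKM and in the ventral forebrain at most 0.0552.

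The isthmus and Fgf list had 8 of 18 members higher and 1 lower at E13.5 (median 0.86), beside 2.77% and 2.8% of all features. At E12.5, 1 was higher (Sp8; Pax5 instead without alar plate replicate 3), 4 without alar plate replicate 2 and 0 without dorsal midbrain replicate 1 or 2 or alar plate replicate 1. Fgf17, a ligand of the isthmus, was at 1.20, 8.94 and 1.87 RPKM in the alar plate and at 0.237 to 0.307 in the dorsal midbrain at E13.5 (1.65 ± 0.39, adjusted p = 0.00411). Fgf8, the main ligand there, stayed at or below 1.14 RPKM in the E13.5 libraries and was not called by limma (0.73 ± 0.21 on the log2(RPKM + 1) scale, which shrinks the differences of low genes); a pseudocount of 0.1 and voom called it higher (2.565, adjusted p = 0.00431, and 4.17, adjusted p = 0.00491). Spry1, Spry2 and Il17rd, feedback inhibitors that Fgf signal induces, and Etv5, a transcription factor it induces, were higher. Spry1 was at 4.40, 9.09 and 6.80 RPKM in the alar plate and at 2.08, 1.67 and 1.83 in the dorsal midbrain (1.40 ± 0.24, adjusted p = 0.000623), and Etv5 differed by 1.36 ± 0.22 (adjusted p = 0.000346). Pax8, a relative of Pax5, was at 3.96, 5.01 and 5.53 RPKM in the alar plate and at 0.0318 or less in the dorsal midbrain (2.52 ± 0.61, adjusted p = 0.00514), though voom did not call it (adjusted p = 0.12). Alar plate replicate 5 was the highest in Fgf17, Spry1, Spry2, Etv5 and Il17rd. It was also the library with Krt5 and with the highest sum over hindbrain and cerebellum genes (17.1 RPKM). Without alar plate replicate 5, 4 of 18 were higher (2.74% of all features), and Fgf17, Spry2, Il17rd and Sp8 were no longer called. En1 and En2, homeobox genes that mark the tissue on both sides of the isthmus, were parted. En1 was at 9.41, 15.3 and 18.5 RPKM in the alar plate and at 1.03, 0.639 and 2.61 in the dorsal midbrain at E13.5 (2.70 ± 0.33, adjusted p = 7.94e-05). En2 overlapped between the regions (13.0 to 40.3 and 10.9 to 20.9 RPKM).

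**Figure D3:**
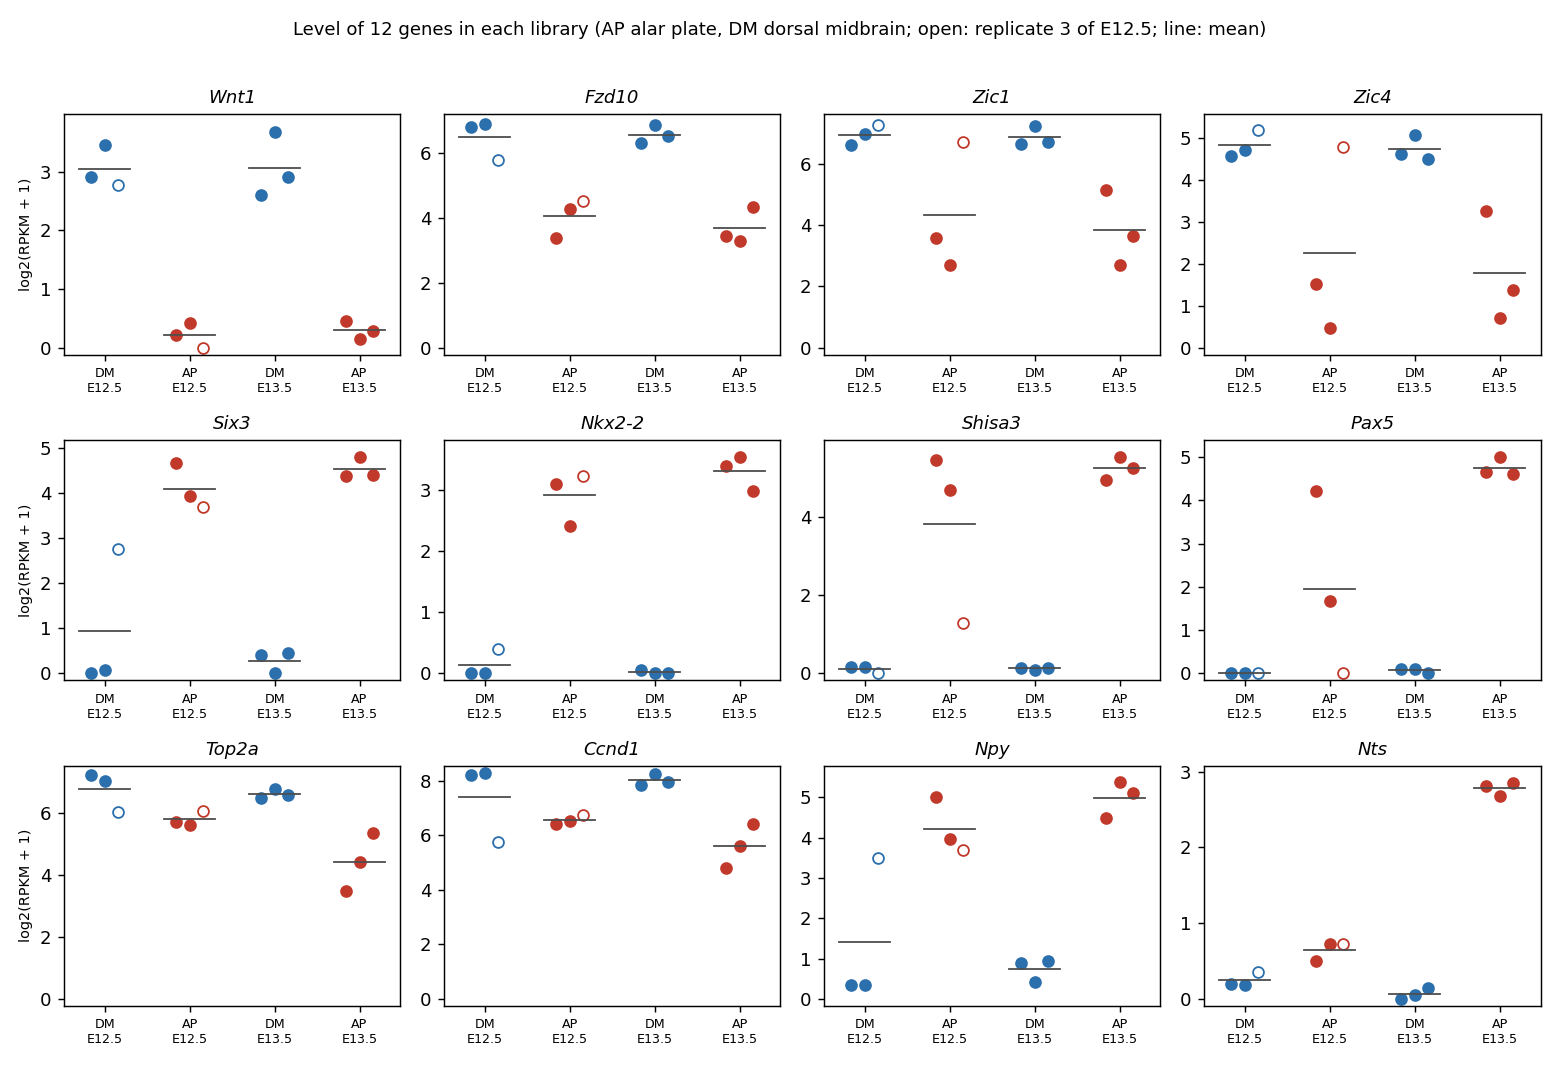
Level of 12 genes in each of the 12 libraries, as log2(RPKM + 1); points are libraries (blue dorsal midbrain, DM; red alar plate, AP), open points are replicate 3 of E12.5 and lines are group means. Wnt1, Fzd10, Zic1 and Zic4 are lower and Six3, Nkx2-2, Shisa3, Pax5 and Npy higher in the alar plate at E13.5 with no overlap, and alar plate replicate 3 of E12.5 lies with the dorsal midbrain in Zic1 (105 RPKM) and below the other alar plate libraries in Shisa3 (1.45 RPKM).

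Of the genes of the floor and basal plate, which lie ventral to the alar plate, 9 of 20 were higher (2.77% of all features) and 1 lower (2.8%) at E13.5, and 7 were higher without alar plate replicate 5 (2.74%). At E12.5, 1 of 20 was higher (Nkx2-2, beside 0.153% of all features) and 2 were lower (Slit2 and Ferd3l, beside 0.437%). Leaving out 1 library at E12.5 gave 1 to 3 higher and 0 to 2 lower. Foxa2, a forkhead gene of the floor plate, was at 4.72, 1.56 and 3.45 RPKM in the alar plate and at 0, 0.0381 and 0 in the dorsal midbrain at E13.5 (1.99 ± 0.29, adjusted p = 0.000194). In the ventral midbrain of that stage it averaged 58.5 RPKM. Shh, the floor plate ligand, was at 0.134 to 0.378 RPKM in the alar plate at E13.5 and was not called. Spon1, an adhesion protein of the floor plate, was at 11.4, 9.53 and 9.80 RPKM in the alar plate and at 0.627, 0.223 and 0.234 in the dorsal midbrain (3.06 ± 0.25, adjusted p = 4.9e-06). Ntn1, the guidance protein netrin, was at 19.0, 19.0 and 19.5 RPKM against 4.01, 1.41 and 2.71 (2.51 ± 0.25, adjusted p = 1.84e-05). Nkx6-1 and Nkx6-2, homeobox genes of the ventral neural tube, differed by 2.02 ± 0.20 (adjusted p = 1.88e-05) and 1.71 ± 0.20 (adjusted p = 6.55e-05). Of genes for dopaminergic neurons, Th was at 0.939, 6.14 and 3.01 RPKM in the alar plate at E13.5, 79.9 on average in the ventral midbrain, and overlapped with the dorsal midbrain (1.03, 0.457 and 0.431). Its call (1.24 ± 0.44, adjusted p = 0.0372) was lost in 8 of 14 other settings. Nr4a2 and Pitx3, also genes of dopaminergic neurons, were called higher at E13.5 as well. The call of Nr4a2 was lost in 1 of 14 other settings, the limma fit of both stages together (adjusted p = 0.0504). Slit2, the ligand of Robo receptors, was lower at both stages (-1.35 ± 0.28, adjusted p = 0.0369, and -1.17 ± 0.26, adjusted p = 0.00311), the E12.5 call being lost in 5 of 16 other settings, among them without dorsal midbrain replicate 1, dorsal midbrain replicate 2 or alar plate replicate 2.

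In the hedgehog pathway list 1 of 14 members was higher (2.77% of all features) and 6 were lower (2.8%) at E13.5, and voom called 4 higher and 6 lower. Ptch1, the receptor and a target gene of the signal, was at 15.7, 11.47 and 11.55 RPKM in the alar plate and at 6.47, 4.55 and 4.36 in the dorsal midbrain (1.19 ± 0.17, adjusted p = 0.000188). Gli1, a target gene as well, was at 2.44, 3.10 and 2.64 RPKM against 1.38, 0.755 and 1.12 and stayed short of a difference of 1 by limma (0.85 ± 0.20), though voom and a pseudocount of 0.1 called it higher. The co-receptors Cdon (-2.06 ± 0.22, adjusted p = 2.76e-05), Boc (-1.92 ± 0.34, adjusted p = 0.000711) and Gas1 (-1.87 ± 0.47, adjusted p = 0.00632) were lower, as were the signal transducer Smo, whose call was lost without alar plate replicate 4 or dorsal midbrain replicate 5, and the transcription factors Gli2 and Gli3. Cdon was at 30.4, 40.3 and 33.3 RPKM in the dorsal midbrain and at 5.12, 8.98 and 9.07 in the alar plate. At E12.5 Gas1 was called among them with all libraries and also without alar plate replicate 3, but not without dorsal midbrain replicate 1, dorsal midbrain replicate 2 or alar plate replicate 2.

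Cell cycle genes had the largest share of called members of any list with at least 5 members tested at E13.5. Of these, 33 of 35 were lower (2.8% of all features) and 0 higher, with a median of -1.74 against -0.02 over all features. Top2a, the topoisomerase that untangles replicated DNA, was at 89.4, 108 and 95.5 RPKM in the dorsal midbrain and at 10.3, 20.5 and 40.1 in the alar plate (-2.19 ± 0.37, adjusted p = 0.00049). Ccnd1, a cyclin of G1 phase and a Wnt target, was at 227, 304 and 251 RPKM against 27.1, 47.4 and 84.9 (-2.41 ± 0.30, adjusted p = 7.87e-05). Pcna, the sliding clamp of DNA polymerase, was at 97.4, 132 and 121.5 RPKM against 32.0, 40.0 and 63.5 (-1.40 ± 0.22, adjusted p = 0.000309). In each of these genes the order among the alar plate libraries was replicate 4, 5 and 6 from lowest to highest, and even replicate 6 lay below every dorsal midbrain library. Ccne1, the cyclin that starts S phase, differed by -1.46 ± 0.20 (adjusted p = 0.000128) and Mki67, a marker of dividing cells, by -1.999 ± 0.351 (adjusted p = 0.000653).

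Summed over the list, cell cycle genes reached 295, 487 and 795 RPKM in the alar plate and 1460, 1872 and 1656 in the dorsal midbrain at E13.5. At E12.5 the sums were 868, 821 and 1458 RPKM in the alar plate and 2197, 2050 and 1037 in the dorsal midbrain. Replicate 3 of E12.5 was the highest alar plate library and the lowest dorsal midbrain library, and the regions overlapped at E12.5 through it alone. No member was called at E12.5 with all libraries (all 35 were lower in sign, median -0.68) or without alar plate replicate 3 (median -0.95). At an unadjusted limma p under 0.05 these were 7 and 16 of the 35 members, and voom called 0 at E12.5; 2 were called with the replicate number as a block and 3 without dorsal midbrain replicate 3. Without replicate 3 of both regions, 16 of 35 were lower, beside 2.1% of all features. With the block and without alar plate replicate 3, 26 of 35 were lower, beside 253 of all 13719 features. Both of these settings were chosen after seeing the data. At E13.5 the alar plate library with the lowest sum, replicate 4, was also the one with the highest Tcf7l2 (221 RPKM) and the lowest sum over meninges and mesenchyme markers (39.8 RPKM, 271 to 274 in replicates 5 and 6), and 29 of 35 were lower without it (2.02% of all features). Their part in the result was not tested.

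**Figure D4:**
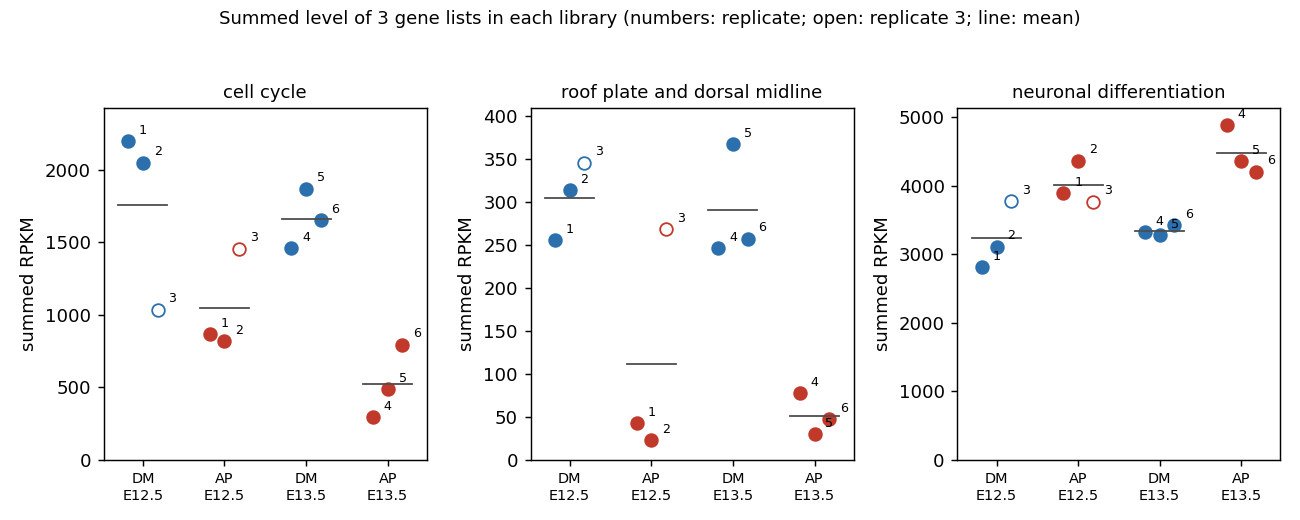
Summed RPKM of the cell cycle, roof plate and neuronal differentiation lists in each library (blue dorsal midbrain, DM; red alar plate, AP; numbers give the replicate, open points are replicate 3 and lines are group means). At E13.5 the regions do not overlap in any of the 3 lists (cell cycle 295 to 795 against 1460 to 1872), and at E12.5 alar plate replicate 3 lies within the dorsal midbrain range in all 3.

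The promoters of these genes were searched for a pair of elements known from genes of the G2 and M phases, the CCAAT box (CCAAT) and the cell cycle homology region (TTTGAA), on both strands of the 250 bases before the start. Of the 33 genes lower at E13.5, 27 matched a RefSeq promoter. The CCAAT box was in 22 of them (81.5%), against 33.8% of all promoters, and TTTGAA in 8 (29.6%), against 16.0%. All 8 held both, against 5.55% of all promoters. The list was chosen as cell cycle genes and 33 of its 35 tested members were lower. These shares therefore describe the list and not the difference between regions. The letters of the motifs do not overlap each other, but TTTGAA shares 5 letters with the TCF/LEF core. Top2a, Cdk1 and Ccnb1 are shown as members with both elements or with the CCAAT box alone, with matches in capitals: Top2a has 6 CCAAT boxes and 2 of TTTGAA, Cdk1 has 3 and 2, and Ccnb1 has 2 and 0.
Top2a (chr11:99024190-99024439, minus strand): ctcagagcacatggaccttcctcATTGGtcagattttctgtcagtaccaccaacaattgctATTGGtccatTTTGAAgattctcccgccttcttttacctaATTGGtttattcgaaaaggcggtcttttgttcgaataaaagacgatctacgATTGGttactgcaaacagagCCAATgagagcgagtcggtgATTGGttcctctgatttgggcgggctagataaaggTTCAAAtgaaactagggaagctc
Cdk1 (chr10:69352913-69353162, minus strand): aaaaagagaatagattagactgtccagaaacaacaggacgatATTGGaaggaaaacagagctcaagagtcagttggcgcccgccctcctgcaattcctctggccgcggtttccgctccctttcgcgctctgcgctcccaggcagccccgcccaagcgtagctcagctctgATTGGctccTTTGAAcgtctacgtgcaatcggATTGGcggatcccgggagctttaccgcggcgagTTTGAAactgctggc
Ccnb1 (chr13:100786487-100786736, minus strand): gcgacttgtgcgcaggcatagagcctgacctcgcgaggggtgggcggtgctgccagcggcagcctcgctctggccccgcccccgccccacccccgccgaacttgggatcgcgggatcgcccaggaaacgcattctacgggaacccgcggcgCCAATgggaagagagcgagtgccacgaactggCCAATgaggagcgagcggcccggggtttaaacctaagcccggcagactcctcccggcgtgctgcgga

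The proneural and Notch list had 9 of 27 members lower (2.8% of all features) and 0 higher at E13.5. The count was 4 without alar plate replicate 4 (2.02% of all features) and 5 without dorsal midbrain replicate 5, and 0 of 26 called at E12.5, where 8 had an unadjusted limma p under 0.05, voom called 0 and the fit without dorsal midbrain replicate 3 called 4. Hes5, a target of Notch in progenitors, was at 119.5, 149.8 and 147 RPKM in the dorsal midbrain and at 33.7, 40.5 and 58.96 in the alar plate at E13.5 (-1.65 ± 0.22, adjusted p = 0.000132). Dll1, a Notch ligand, differed by -1.01 ± 0.14 (adjusted p = 0.000189), a call lost in 5 of 14 other settings, in which the difference fell short of 1 (-0.98 to -0.94): median-of-ratios scaling and without replicate 5 of either region, alar plate replicate 4 or dorsal midbrain replicate 6. The radial glia and progenitor list went both ways at E13.5, with 7 of 25 lower (2.8% of all features) and 4 higher (2.77%). Without alar plate replicate 4, 4 were lower (2.02% of all features) and 3 higher. Nr2e1, which keeps neural stem cells dividing, was lower (-2.07 ± 0.37, adjusted p = 0.00074). Aldh1l1, a folate enzyme of radial glia and astrocytes, was higher (1.97 ± 0.15, adjusted p = 4.25e-06), at 14.54, 18.8 and 15.9 RPKM in the alar plate against 3.61, 3.92 and 2.77 in the dorsal midbrain, as was the glutamate transporter Slc1a3 (1.13 ± 0.25, adjusted p = 0.00284).

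Of the 30 members of the neuronal differentiation list, 29 were positive at E13.5 (median 0.52, against -0.02 over all features). Of the 30, 5 were called, all higher (2.77% of all features): Mapt, Syt4, Myt1l, Scg2 and Vsnl1 (without alar plate replicate 4 all but Myt1l). Mapt, the microtubule protein tau, was at 309, 215 and 181 RPKM in the alar plate and at 100.3, 81.5 and 91.8 in the dorsal midbrain (1.32 ± 0.17, adjusted p = 9.32e-05). Vsnl1, a calcium sensor of neurons, was at 13.2, 10.2 and 8.51 RPKM against 1.57, 0.937 and 1.41 (2.33 ± 0.19, adjusted p = 6.45e-06). Alar plate replicate 4 was the highest in both genes. None of the 30 was called at E12.5 with all libraries or without alar plate replicate 3, where 6 and 14 members had an unadjusted limma p under 0.05, and voom called 0 at E12.5.

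By transmitter, 4 of 21 genes of GABAergic fate and transmission were higher (2.77% of all features) and 2 lower (2.8%) at E13.5. Without alar plate replicate 4, alar plate replicate 5 or any 1 dorsal midbrain library, 2 were higher. Slc32a1, which loads GABA into vesicles, was at 37.1, 28.3 and 28.7 RPKM in the alar plate and at 12.6, 10.3 and 11.2 in the dorsal midbrain (1.38 ± 0.49, adjusted p = 0.0371), a call lost in 8 of 14 other settings. Gad1 and Gad2, the enzymes of GABA synthesis, had differences of 0.57 ± 0.45 and 1.15 ± 0.50 and were not called by limma; Gad2 was called higher in 3 of 14 other settings, voom among them (adjusted p of 0.00277 to 0.0497 over the 3). Helt, a factor of midbrain GABAergic precursors, was lower (-1.18 ± 0.29, adjusted p = 0.00583), and its call was lost without alar plate replicate 4. In the glutamatergic list 1 of 17 was higher (Neurod6) and 1 lower (Pou4f1), near the shares over all features, and the Pou4f1 call was lost in 8 of 14 other settings (adjusted p up to 0.16). Slc17a6, the vesicular glutamate transporter, was at 37.7 to 40.9 RPKM in the alar plate and at 29.3 to 35.8 in the dorsal midbrain (0.26 ± 0.17).

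Neuropeptide genes were called only in the higher direction, 4 of 18 at E13.5 (2.77% of all features). Npy, neuropeptide Y, was at 21.4, 40.9 and 33.6 RPKM in the alar plate and at 0.850, 0.329 and 0.931 in the dorsal midbrain (4.25 ± 0.23, adjusted p = 3.9e-07). At E12.5 it was at 31.3, 14.54 and 11.9 RPKM in the alar plate and at 0.279, 0.264 and 10.3 in the dorsal midbrain, where the high library was replicate 3. The E12.5 difference (2.82 ± 0.88, adjusted p = 0.11) was called without replicate 3 of both regions (4.14 ± 0.86, adjusted p = 0.00758). Tac1, the precursor of substance P, was at 12.8, 13.55 and 10.45 RPKM against 3.06, 3.07 and 3.59 at E13.5 (1.64 ± 0.17, adjusted p = 2.04e-05). Nxph1, a secreted ligand of neurexins, differed by 2.25 ± 0.22 (adjusted p = 1.78e-05), and Nts is given with the comparison of stages.

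Among axon guidance genes 4 of 39 were higher (2.77% of all features) and 2 lower (2.8%) at E13.5, the lower count being close to the share over all features; voom called 8 higher, and limma 7 without alar plate replicate 6. Robo3, which governs the crossing of the midline by axons, was at 6.43, 22.7 and 16.3 RPKM in the alar plate and at 0.965, 2.72 and 2.92 in the dorsal midbrain at E13.5 (2.24 ± 0.35, adjusted p = 0.000307). At E12.5 the regions overlapped in it, with 19.1, 11.6 and 1.52 RPKM in the alar plate and 10.7 ± 4.53 (SD, n = 3) in the dorsal midbrain. Slit1, a repellent ligand, was lower at both stages (-1.56 ± 0.26, adjusted p = 0.0129, and -1.42 ± 0.16, adjusted p = 3.51e-05), though not at E12.5 without dorsal midbrain replicate 1 or 2. Tenm3, a teneurin adhesion protein that helps to map visual axons, was at 75.4, 86.6 and 57.6 RPKM in the dorsal midbrain and at 13.6, 17.2 and 12.7 in the alar plate at E12.5 (-2.25 ± 0.16, adjusted p = 1.91e-05). Its E13.5 values were 67.6, 88.8 and 60.3 RPKM against 22.7, 13.9 and 15.2 (-2.01 ± 0.16, adjusted p = 4.9e-06), so all 6 alar plate libraries lay below all 6 of the dorsal midbrain. Of ephrins and Eph receptors, which map axons in the tectum, Efna2 (-1.22 ± 0.19, adjusted p = 0.000338) and Epha2 (-2.17 ± 0.28, adjusted p = 0.00011) were lower and Epha3 (1.82 ± 0.26, adjusted p = 0.000197) was higher at E13.5.

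Of the dorsal midbrain and tectum list, 8 of 25 were lower (2.8% of all features) and 2 higher (2.77%) at E13.5, and 5 were lower without alar plate replicate 4, alar plate replicate 5 or dorsal midbrain replicate 5. Pax3 and Pax7, paired-box genes of the dorsal neural tube, were expressed in both regions. Pax3 was at 37.8, 42.5 and 37.8 RPKM in the dorsal midbrain and at 9.68, 5.31 and 14.7 in the alar plate at E13.5 (-1.99 ± 0.61, adjusted p = 0.0187), a call lost without replicate 5 of either region. Pax7 was at 52.2, 43.8 and 41.4 RPKM against 13.6, 12.03 and 20.3 (-1.55 ± 0.53, adjusted p = 0.0332), a call lost in 8 of 14 other settings. Otx2 was at 192, 194 and 171 RPKM in the dorsal midbrain and at 58.4, 70.2 and 89.0 in the alar plate (-1.36 ± 0.31, adjusted p = 0.0034). Dmbx1, a midbrain homeobox gene, was called at both stages (-1.29 ± 0.27, adjusted p = 0.0382, and -1.54 ± 0.36, adjusted p = 0.00401), though the E12.5 call was lost in 7 of 16 other settings, among them without alar plate replicate 3 (-1.05 ± 0.28, adjusted p = 0.0599) and without dorsal midbrain replicate 1 or 2. Of the diencephalon and pretectum list, 5 of 25 were higher at E13.5 (Foxp2, Six3, Pax6, Otx1 and Nkx2-2) and 2 lower (Dbx1 and Gsx1). The shares over all features were 2.77% and 2.8%. Without alar plate replicate 4 or any 1 dorsal midbrain library, 3 were higher. The call of Otx1 was lost in 8 and that of Dbx1 in 4 of 14 other settings. Pax6 was highest in alar plate replicate 4 (15.8 RPKM, 1.97 and 2.61 in replicates 5 and 6), and its call (2.04 ± 0.72, adjusted p = 0.0368) was lost in 6 of 14 other settings, among them without that library and without each of the 3 dorsal midbrain libraries (adjusted p up to 0.184). Gbx2 was at 3.71 RPKM in that library and at most 0.278 in the other E13.5 libraries of both regions.

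**Figure D5:**
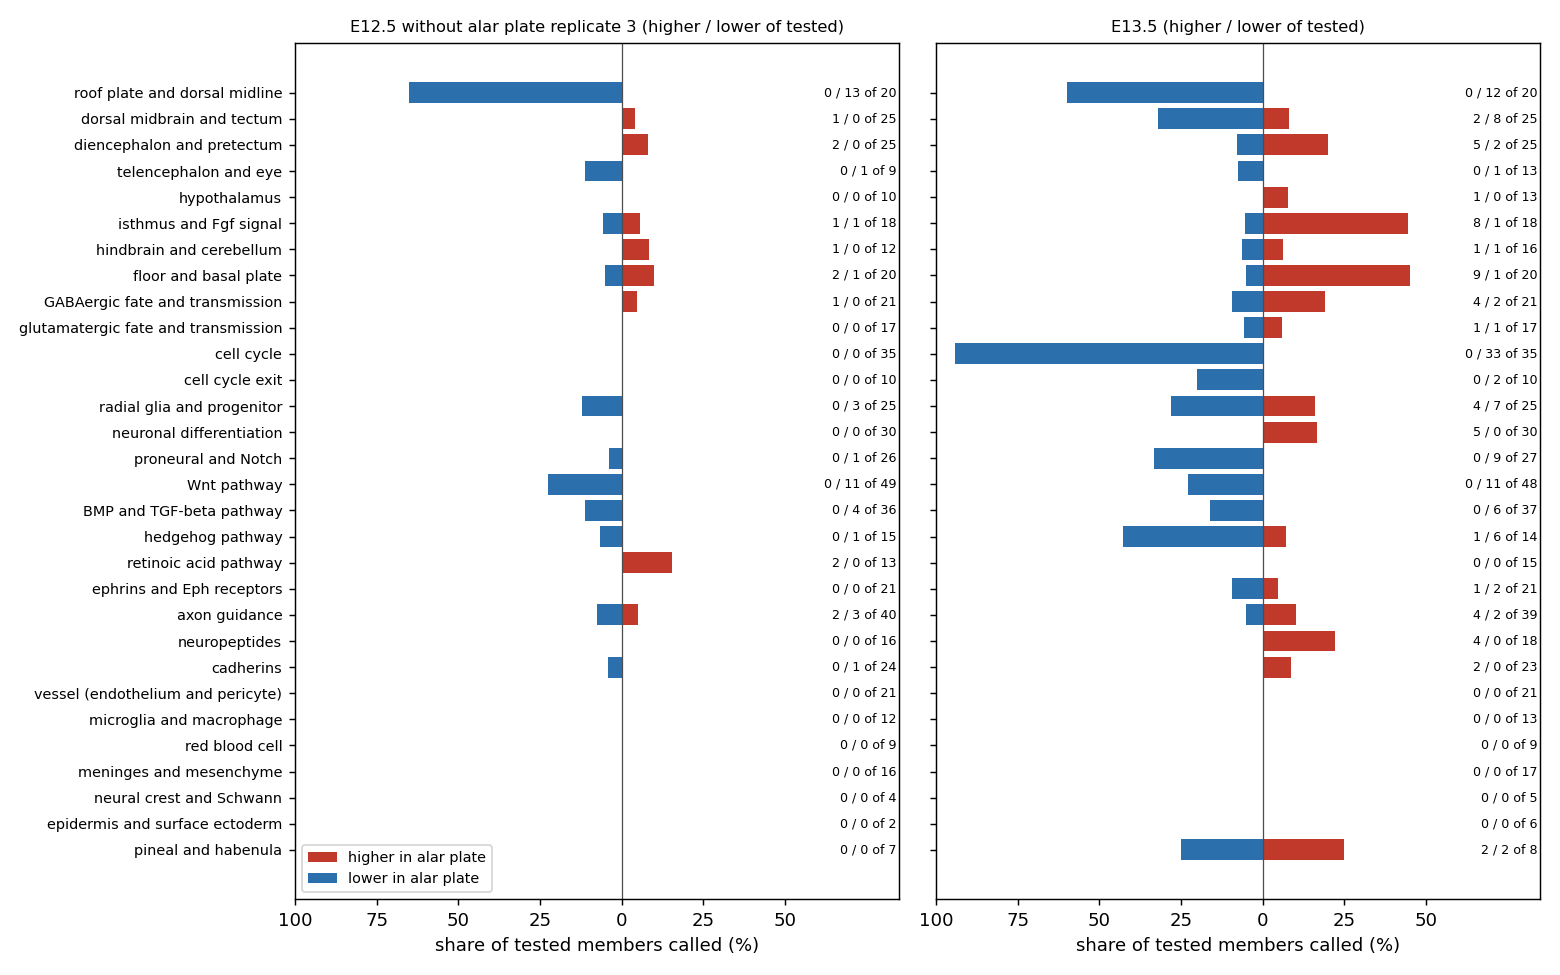
Share of tested members called higher (right, red) or lower (left, blue) in the alar plate for 30 gene lists, at E12.5 without alar plate replicate 3 (left panel) and at E13.5 (right panel), with counts at the right edge. Roof plate genes are lower in both panels (13 and 12 of 20), whereas cell cycle genes are called at E13.5 alone (33 of 35) under these settings.

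No member was called at either stage in the lists for vessels (21 tested), microglia and macrophages (13 at E13.5), red blood cells (9), meninges and mesenchyme (17 at E13.5), neural crest and Schwann cells (5 at E13.5) or epidermis (6 at E13.5). In that order, 3, 1, 1, 3, 1 and 0 members had an unadjusted limma p under 0.05 at E12.5, and 5, 0, 0, 1, 1 and 2 at E13.5. Without alar plate replicate 3 the E12.5 numbers were 6 of 21, 1 of 12, 6 of 9, 2 of 16, 0 of 4 and 0 of 2. At E12.5 voom called 0 in each of these lists, and at E13.5 it called 1 vessel, 1 meninges and 1 epidermis gene. Without alar plate replicate 1 of E12.5, limma called 5 meninges, 2 vessel and 1 microglia gene lower, and without alar plate replicate 6 of E13.5 it called 2 epidermis genes higher. Vessel markers summed to 146 to 210 RPKM in the alar plate and 127 to 166 in the dorsal midbrain at E13.5, and meningeal markers to 39.8 to 274 and 159 to 191. Epidermal markers summed to 25.5 RPKM in alar plate replicate 5 and to at most 4.59 in the other E13.5 libraries. In the choroid plexus list 1 of 3 members tested was lower at E13.5 (2.8% of all features). At E12.5, 0 were called with all libraries and 1 was lower without dorsal midbrain replicate 3. Choroid plexus markers summed to 60.5 to 91.3 RPKM in the alar plate and 173 to 196 in the dorsal midbrain at E13.5. In each of these libraries the sum nearly equalled the level of Otx2 alone, given above. It therefore says little of the other members and cannot be read as an amount of choroid plexus. The part of these cell types in the results above was not tested.

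The difference between regions was compared between the stages in 1 fit of 30 libraries. It differed in 1 of 13994 features (0.00715%), Nts, and 1124 had an unadjusted p below 0.05. Nts, the precursor of neurotensin, was at 6.04, 5.42 and 6.23 RPKM in the alar plate and at 0, 0.0331 and 0.104 in the dorsal midbrain at E13.5 (2.72 ± 0.24, adjusted p = 8.3e-06). At E12.5 it was at 0.418, 0.654 and 0.646 RPKM in the alar plate and at 0.140, 0.133 and 0.282 in the dorsal midbrain (0.41 ± 0.22, adjusted p = 0.284). The alar plate lay above the dorsal midbrain at both stages, and the difference grew by 2.31 ± 0.33 (adjusted p = 0.00495). The growth did not pass without replicate 3 of both regions at E12.5 (2.29, adjusted p = 0.072). For the cell cycle genes, Shisa3, Pax5 and the other genes called at E13.5 but not at E12.5, a difference between stages was thus not shown: that of Pax5 was 2.74 ± 0.86 (adjusted p = 0.524) and that of Top2a -1.22 ± 0.65 (adjusted p = 0.524).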

How the data were processed

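Bulk RNA sequencing values of 12 libraries (alar plate and dorsal midbrain, E12.5 and E13.5) were analysed, with 18 libraries of the ventral regions for the spread and the filter on features. The authors deposited RPKM per feature. Reads were mapped with Bowtie to mm10, per the submitters' processing notes; its version, and the read counter, annotation and strand used, were not given in the sources used here. Value times transcript length gave whole reads within 0.001 for 100.0% of values, so totals per library are known. A value of 0 allows up to 3 reads, a floor of 0.127 to 0.372 reads per 1000000 in the 12 libraries, which covers counting error only. The deposited unit is RPKM, and the main test was limma 3.58.1 (R 4.3.3) with a trend on log2(RPKM + 1). It was fitted per stage over 15 libraries and over 30 for the difference between stages. Features needed a group mean of at least 1 RPKM. The voom method on the recovered reads called 99 genes at E12.5 and 1464 at E13.5. The fits were tested on simulated data with the same spread in every library. No simulated library stood apart from its group, so that test does not bear on how stable the E12.5 calls are.

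The libraries, gene lists and tests were chosen with earlier results of these data known. Named genes are up to 12 per direction and stage with the largest difference among called genes (at least 5 RPKM, groups not overlapping), up to 5 members per list with the smallest adjusted p, and the region markers. Predicted genes and features named for microRNAs were passed over. Some genes that this rule names are not reported here. Other list members and marker genes were picked after their values were seen. At E13.5 deviations of alar plate and dorsal midbrain libraries with the same replicate number correlated at 0.335, 0.189 and 0.297 across genes. With unlike numbers the values ran from -0.311 to 0.067. The same-number values of the alar plate were -0.223, 0.117 and -0.049 with the ventral midbrain. They were -0.031, 0.019 and 0.264 with the ventral forebrain and 0.387, 0.152 and 0.257 with the ventral hindbrain. Alternatives were other pseudocounts, filters, scaling, voom, blocks by replicate number and left-out libraries. Gene positions are from GENCODE on mm10 and promoters from RefSeq on GRCm38.p6.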

Additional observations from a re-analysis of the deposited data

Results flagged for a closer look

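The alar plate against dorsal midbrain difference of Nts was larger at E13.5 than at E12.5 by 2.31 ± 0.33 on the log2 scale (limma, adjusted p = 0.00495), which passed the test of the difference between stages over all features. All 3 alar plate libraries lay above all 3 dorsal midbrain libraries at both stages. The adjusted p ran from 0.000478 to 0.504 over the other settings, and it was above 0.05 with a pseudocount of 0.1 (0.0939), with voom (0.504) and without replicate 3 of both regions at E12.5 (0.072).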

How the results depend on the processing

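Genes near 0 RPKM rest on few reads, and 3 libraries per group and the libraries that stand apart limit the E12.5 counts. The 81 genes called at E12.5 became 53 with a mean of at least 5 RPKM, 8 in a fit of the 6 libraries of both regions alone and 184 in 1 fit of both stages. Leaving out 1 library gave 38 to 279, and leaving out replicate 3 of both regions, chosen after seeing the data, gave 529. The 771 genes of E13.5 became 1311 with a pseudocount of 0.1 and 1464 with voom, and 575 to 998 without 1 library. The single gene that differed between stages became 0 with voom and 0 without replicate 3 of both regions, and 1 to 5 without 1 library, 5 being the count without alar plate replicate 1 of E12.5. The 55 genes called at both stages became 7 in the fits of 2 regions, 125 in 1 fit of both stages, 25 to 188 without 1 library and 417 without replicate 3 of both regions. The smaller fits estimated the spread from fewer libraries, and at E13.5 the 6 libraries of both regions alone gave 779 genes. The cause of these changes was not tested. With the replicate number as a block, 124 genes were called at E12.5, 774 at E13.5 and 87 at both stages, and the difference between stages kept its count of 1. At E12.5 the correlations of deviations between libraries of the same number were -0.059, -0.141 and -0.167. Alar plate replicate 3 departed from its group in 13.4% of features, so these values cannot show whether the numbers pair the regions. The block with alar plate replicate 3 left out, chosen after seeing the data, called 422 at E12.5. Of the called genes that the rule names or the text describes, 5 of 35 at E12.5 kept their call in all 16 settings and 94 of 128 at E13.5 in all 14. None of these changed sign. Ptch1, not called at E12.5 (0.24), ranged from -0.093 to 0.733 there when 1 library was left out.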

Other observations

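Genes of other kinds were also called. Among genes higher in the alar plate at E13.5, Sulf1, an enzyme that trims heparan sulfate, was at 11.3, 10.95 and 8.47 RPKM in the alar plate and at 0.460, 0.256 and 0.336 in the dorsal midbrain (3.05 ± 0.25, limma, adjusted p = 5.64e-06). The glycolytic enzyme Aldoc was at 9.74, 8.04 and 9.02 RPKM against 0.101, 0.518 and 0.925 (2.75 ± 0.36, adjusted p = 0.000107). The adhesion protein Chl1 was at 60.6, 40.5 and 28.9 RPKM against 8.88, 3.28 and 4.89 (2.75 ± 0.28, adjusted p = 2.18e-05). Hs3st4, a heparan sulfate sulfotransferase, was called at both stages (2.07 ± 0.21, adjusted p = 0.00026, and 2.36 ± 0.21, adjusted p = 9.78e-06), as was the glycine receptor subunit Glra2 (1.63 ± 0.25, adjusted p = 0.00598, and 1.98 ± 0.18, adjusted p = 1.2e-05). Pdlim3, a protein of the actin cytoskeleton, was called at both stages and was highest in alar plate replicate 3 of E12.5 (32.7 RPKM, beside 10.3 and 6.24); its E12.5 call was lost without dorsal midbrain replicate 2.

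Among lower genes, Ddn, the gene of the neuronal protein dendrin, was at 4.64, 8.11 and 5.09 RPKM in the dorsal midbrain and at 0.287, 0.161 and 0.0930 in the alar plate at E13.5 (-2.53 ± 0.20, adjusted p = 4.47e-06), and it was also called at E12.5 (-2.32 ± 0.19, adjusted p = 6.21e-05). Galnt12, an enzyme that starts O-glycans, was called at both stages (-2.20 ± 0.19, adjusted p = 6.21e-05, and -2.13 ± 0.22, adjusted p = 2.35e-05). Cyp26b1, which breaks down retinoic acid, went the other way. It was called higher at E12.5 only without alar plate replicate 3 (1.92 ± 0.35, limma, adjusted p = 0.013). At E13.5 it was called higher only without alar plate replicate 4 (adjusted p = 0.0438). Its E13.5 values overlapped (3.80, 14.9 and 12.2 RPKM in the alar plate and 4.12, 0.900 and 7.01 in the dorsal midbrain).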
